A study of Arabidopsis thaliana with 114 samples.

Results

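LBD37 (AT5G67420), LBD38 (AT3G49940) and LBD39 (AT4G37540) are 3 Arabidopsis thaliana genes that encode transcription factors with a LATERAL ORGAN BOUNDARIES (LOB) domain. They were taken by identifier, with earlier results of these data known, and are 3 of the 28712 genes counted in each library. Their transcripts were counted by RNA sequencing in shoots and in roots of seedlings harvested up to 120 min after nitrogen (N) or KCl was supplied. Per the labels' protocols, all seedlings grew in trays on 1% sucrose and 1 mM KNO3. The N groups then received 60 mM nitrogen, as 20 mM KNO3 plus 20 mM NH4NO3, and the KCl groups received 20 mM KCl. Time 0 stands for the seedlings before either supply. Each organ has 9 N groups and 9 KCl groups (5, 10, 15, 20, 30, 45, 60, 90 and 120 min) and 1 group at time 0, with 3 libraries in each of the 38 groups and 114 in all. The labels give no unit of time, which is read here as minutes, and neither ecotype nor age. N stands for the whole supply, so what nitrate, ammonium, chloride or the total salt each did cannot be told apart. Nothing in the labels says that the 3 libraries of a group came from separate cultures, so p-values measure the spread between these libraries only.

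LOB-domain proteins are plant-specific DNA-binding transcription factors, and LBD37, LBD38 and LBD39 belong to their small class II. In Arabidopsis these 3 are known as repressors: their overexpression lowers the transcripts of the anthocyanin regulators PAP1 and PAP2 and of genes of nitrate uptake and reduction. Anthocyanins are pigments that accumulate when nitrogen is scarce. The 3 genes are themselves known to be induced by nitrate. The comparisons here ask when each of the 3 transcripts responds in each organ, when it is highest and whether it declines within the 120 min.

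The 3 genes lie on different chromosomes and are close relatives in sequence. In the assembly TAIR10.1 of RefSeq, LBD37 is at chr5:26903866-26906524 on the minus strand, LBD38 at chr3:18514266-18516131 on the plus strand and LBD39 at chr4:17639393-17640925 on the minus strand. Their coding sequences have 753, 744 and 723 bases, each in 2 coding exons. No annotated gene overlaps any of them. The counts were made on TAIR10, so that gene identifiers alone link these models to the counts. Aligned coding sequences of LBD37 and LBD38 were identical at 589 of 725 paired bases (81.24%), those of LBD38 and LBD39 at 510 of 672 (75.89%) and those of LBD37 and LBD39 at 504 of 686 (73.47%). The longest run shared by any pair was 35 bases, in LBD37 and LBD39. Reads from such a run could be assigned to the wrong copy or lost, and how the authors' counting treated them is not given in the sources used here. Bases 82 to 141 of the coding sequence, counted from 1 at the first base of the start codon, show how alike the copies are. Capitals mark the 49 of 60 bases that are the same in all 3 genes, including the run of 29 bases common to all 3.
LBD37: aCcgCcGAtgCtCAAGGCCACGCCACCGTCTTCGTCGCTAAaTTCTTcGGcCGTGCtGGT
LBD38: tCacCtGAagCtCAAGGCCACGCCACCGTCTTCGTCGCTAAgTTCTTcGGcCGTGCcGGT
LBD39: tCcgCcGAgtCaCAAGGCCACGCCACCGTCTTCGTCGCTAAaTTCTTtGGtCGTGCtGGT

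The bases before the 3 genes are shown because the genes rose together in both organs, as the values that follow show. Each window holds the 250 bases before the annotated gene start on the gene's own strand, from TAIR10.1. They are chr5:26906525-26906774 on the minus strand for LBD37, chr3:18514016-18514265 on the plus strand for LBD38 and chr4:17640926-17641175 on the minus strand for LBD39. Capitals mark matches to GAATC, the pentamer bound by the NIGT1 repressors, and to TGACG, the core bound by TGA-type bZIP factors. A match on the other strand reads as GATTC for the first of these pentamers and as CGTCA for the second.
LBD37: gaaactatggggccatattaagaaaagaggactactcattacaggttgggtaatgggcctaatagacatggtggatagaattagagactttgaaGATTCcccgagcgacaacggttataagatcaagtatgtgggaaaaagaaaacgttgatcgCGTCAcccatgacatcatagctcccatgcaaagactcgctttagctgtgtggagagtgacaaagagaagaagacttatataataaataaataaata
LBD38: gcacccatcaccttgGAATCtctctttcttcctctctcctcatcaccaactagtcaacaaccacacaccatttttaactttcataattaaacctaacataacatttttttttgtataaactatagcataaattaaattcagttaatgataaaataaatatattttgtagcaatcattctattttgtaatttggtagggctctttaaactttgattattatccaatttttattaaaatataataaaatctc
LBD39: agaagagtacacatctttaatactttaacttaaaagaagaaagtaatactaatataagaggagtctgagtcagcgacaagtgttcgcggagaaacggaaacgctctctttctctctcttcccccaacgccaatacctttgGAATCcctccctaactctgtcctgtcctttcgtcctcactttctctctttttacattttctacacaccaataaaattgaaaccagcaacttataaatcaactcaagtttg

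All 3 windows hold GAATC once, a pentamer that 38.8% of 27443 windows of the same length hold on either strand. It lies at bases 156 to 152 before the gene start in LBD37, on the other strand, at 235 to 231 in LBD38 and at 110 to 106 in LBD39. TGACG is found in LBD37 alone, at bases 96 to 92 on the other strand, and in 18.6% of all windows. Neither the gapped core of the nitrate-responsive element, in 0.182% of all windows, nor the LOB-domain motif GCGGCG, in 1.56%, matched any of the 3 windows on either strand. The LBD37 window overlaps 1 other annotated gene. These are matches of letters in these windows only.

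Some libraries stand apart from the others. KCl replicate 2 of the shoot at 90 min holds 1302 gene counts and was left out of all values given here, which leaves 2 libraries in that group. Depth in the remaining 56 shoot libraries was 5710272 to 43570824 gene counts, and in the 57 root libraries 13878732 to 143269564. The 12 root libraries at 10 and 15 min, N and KCl alike, had TMM scaling factors of 0.633 to 0.825, against 0.993 to 1.17 in the other 45 root libraries. Root levels at those 2 times therefore lean on the scaling of library sizes. Shoot files list 0 for reads aligned to more than 1 place, whereas root files hold 7.055 to 48.61% such reads. The 56 shoot files also hold no counts for organelle genes, whereas all 57 root files hold some. Organ and file processing thus coincide. The tissue labels were checked with 6 marker genes per organ. Shoot markers summed to 2805 to 8157 CPM (counts scaled to library size) in shoot libraries and to 45.5 to 315 CPM in root libraries. Root markers summed to 123 to 518 CPM in root libraries and to 3.12 to 21.6 CPM in shoot libraries, and no marker sum was 0. In bulk tissue, fewer cells of a type and less RNA per cell cannot be told apart.

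Before any supply, all 3 transcripts were lower in the shoot than in the root. LBD37 had 8.0, 5.14 and 6.99 CPM in the shoot libraries at time 0, against 36.4, 25.8 and 43.1 CPM in the root libraries. LBD38 had 1.28, 0.821 and 1.67 CPM in the shoot, against 11.5, 12.8 and 19.1 CPM in the root. LBD39 was close to the limit of detection in the shoot, with 1, 0 and 3 reads, or 0.0442, 0 and 0.0686 CPM, against 0.928, 0.366 and 1.01 CPM in the root. For none of the 3 genes did the ranges of shoot and root overlap. In a fit of both organs the difference, shoot minus root on the log2 scale, was -2.53 (SE 0.335) for LBD37, -3.66 (SE 0.422) for LBD38 and -4.40 (SE 0.894) for LBD39, with adjusted p of 1.97e-10, 1.54e-12 and 8.56e-06. At time 0, 43.4% of all genes were likewise lower in the shoot than in the root.

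With N, all 3 transcripts rose in the shoot and in the root and stayed above KCl to the end of the course. LBD37 ranged from 19.1 to 704 CPM over the 27 shoot N libraries (median 535), against 6.47 to 35.7 CPM over 26 shoot KCl libraries (median 13.4). LBD38 ranged from 9.20 to 285 CPM in shoot N libraries (median 193), against 0.613 to 8.60 CPM with KCl (median 2.76). LBD39 ranged from 0.131 to 71.2 CPM in shoot N libraries (median 37.1), against 0 to 0.926 CPM with KCl (median 0.0854). In the shoot, LBD37 and LBD39 overlapped between N and KCl at 5 min only, and LBD38 at no time.

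In the root LBD37 ranged from 61.0 to 859 CPM over 27 N libraries (median 517), against 35.6 to 217 CPM over 27 KCl libraries (median 71.6). LBD38 ranged from 35.6 to 659.6 CPM in root N libraries (median 432), against 10.9 to 80.1 CPM with KCl (median 32.8). LBD39 ranged from 2.14 to 87.8 CPM in root N libraries (median 56.6), against 0.768 to 8.36 CPM with KCl (median 1.89). At each of the 9 times, every root N library was above every root KCl library of that time for all 3 genes. In edgeR's quasi-likelihood test of N against KCl at any time, adjusted p for LBD37, LBD38 and LBD39 was 1.26e-23, 6.21e-25 and 1.83e-23 in the shoot and 1.59e-24, 1.27e-24 and 7.87e-23 in the root. This test called 47.4% of all genes in the shoot and 61.0% in the root, so being called at some time does not set the 3 genes apart, and the time course gives more.

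**Figure D1:**
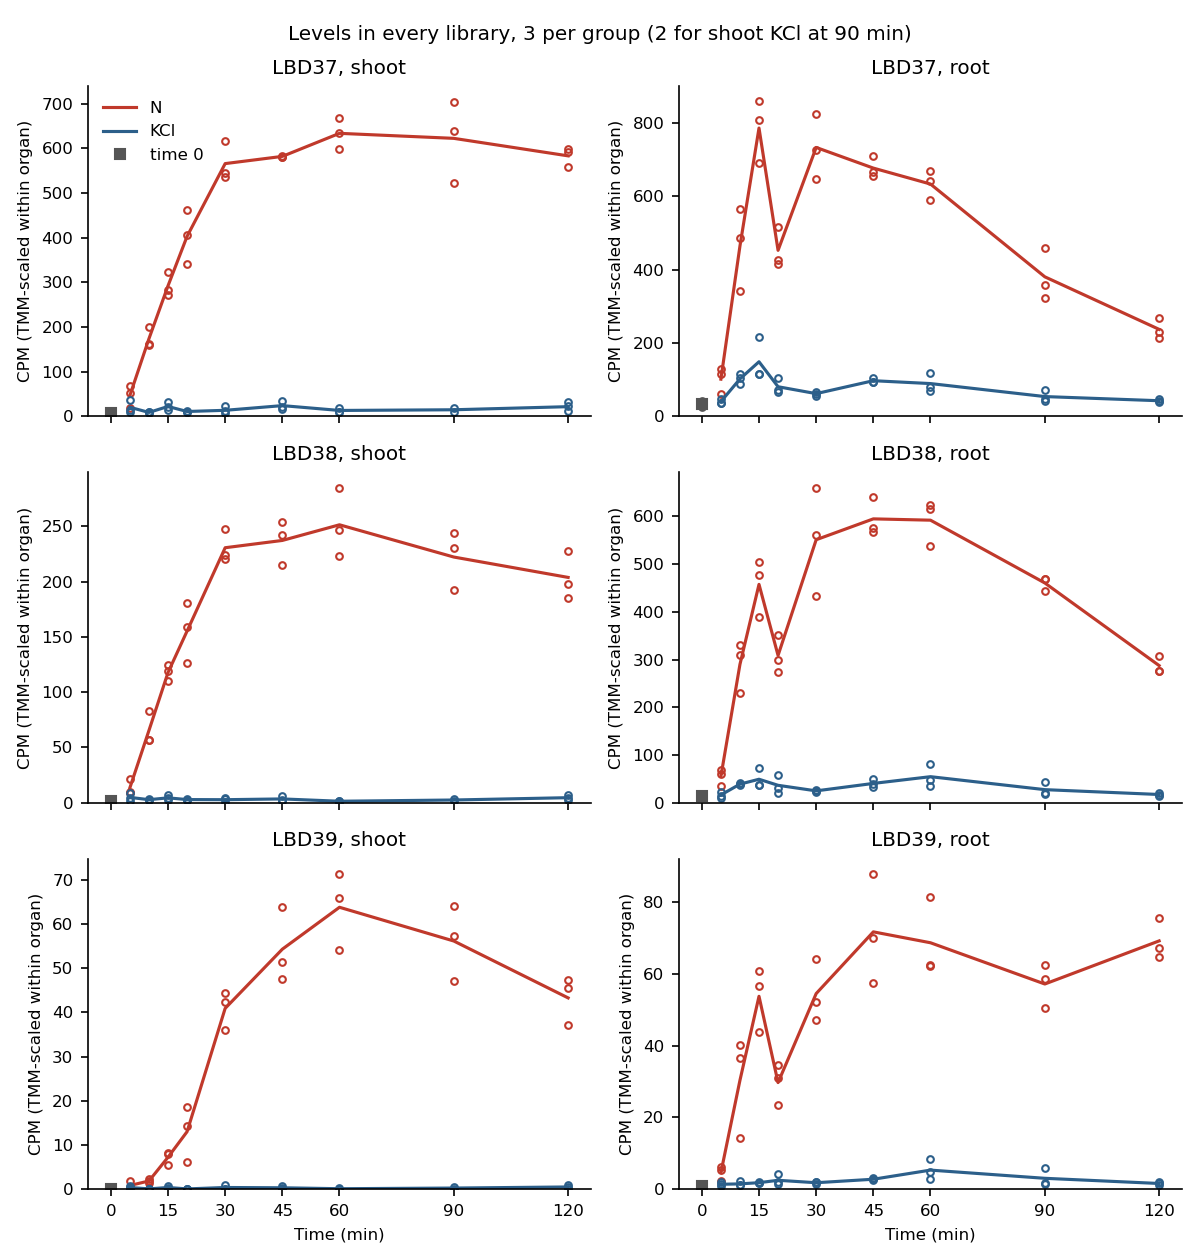
CPM (vertical axis, linear, scaled by TMM within each organ) against time in minutes for LBD37, LBD38 and LBD39 (rows) in shoot and root (columns); each circle is 1 library, lines join the group means of N (red) and KCl (blue), and grey squares are time 0. In the shoot with N, LBD37 has means of 566 to 633 CPM and LBD38 of 204 to 251 CPM from 30 min on, and LBD39 goes on to a higher mean at 60 min than at 30 min, while LBD37 and LBD38 in the root are lower at 120 min than at 60 min.

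The onset in the shoot was called at 10 min for all 3 genes, and each gene was called at every later time too, which makes 8 of 9 times for each gene and 24 of 27 gene-time contrasts in all. At 5 min LBD37 had 19.1, 68.6 and 52.9 CPM with N, against 10.4, 35.7 and 14.9 CPM with KCl, and the groups overlapped. Its log2 fold change of N over KCl there was 1.20 (SE 0.380, adjusted p 0.343). LBD38 had 9.57, 21.9 and 9.20 CPM with N at 5 min, against 1.3, 8.60 and 4.57 CPM with KCl, with a log2 fold change of 1.48 (SE 0.432, adjusted p 0.249). The 3 N libraries of LBD38 were thus just above the highest KCl library. In a fit without KCl replicate 2 at any time, adjusted p at 5 min was 0.0214 for LBD37 and 0.0378 for LBD38. At 5 min that replicate was the highest KCl library of both genes. That fit kept N replicate 2, likewise the highest N library of both genes at 5 min. The deviations of these 2 libraries of 5 min from their groups, over all genes, correlated at 0.47. Their part in these adjusted p was not tested. Of all genes, 0.0144% were called higher in the shoot at 5 min.

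At 10 min in the shoot the groups were far apart for LBD37 and LBD38. LBD37 had 162, 159 and 200.0 CPM with N, against 6.70, 10.4 and 9.30 CPM with KCl, a log2 fold change of 4.30 (SE 0.427). LBD38 had 56.5, 56.4 and 83.2 CPM with N, against 2.34, 3.42 and 2.51 CPM with KCl, a log2 fold change of 4.56 (SE 0.465). LBD39 was still low, with 2.34, 1.33 and 1.82 CPM with N, against 2 reads in all with KCl. From the pooled reads of the 3 libraries, LBD39 was 40.6 times as high with N as with KCl at 10 min, with an exact 95% interval of 10.9 to 341 that covers counting error only. Its adjusted p at 10 min was 0.00203, and 0.109 with limma voom, the single method among those tried that did not call it. Of all genes, 0.833% were called higher in the shoot at 10 min, the first time at which these 3 were. At 15, 20 and 30 min that share was 1.53%, 2.56% and 3.95%.

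LBD39 then lagged behind the other two in the shoot. As a share of each gene's highest group mean with N, LBD37 was at 27.4% at 10 min and 46.1% at 15 min, LBD38 at 26.0% and 46.8%, and LBD39 at 2.87% and 11.3%. The difference between mean N and mean KCl was at least 50% of its highest value from 20 min for LBD37 and LBD38 and from 30 min for LBD39, each to 120 min. At 20 min LBD39 had 14.3, 6.09 and 18.6 CPM with N, and at 30 min 44.5, 36.0 and 42.3 CPM, with no overlap between these times. For LBD37 and LBD38 the N libraries of 5, 10, 15 and 20 min did not overlap with each other or with later times, so that each step up to 30 min exceeded the spread.

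All 3 transcripts had their highest mean in the shoot at 60 min, which moved to 90 min for LBD37 without N replicate 1 and to 45 min for LBD38 without N replicate 3. LBD37 had 633, 599 and 668 CPM with N at 60 min, against 19, 10.7 and 9.89 CPM with KCl (log2 fold change 5.59, SE 0.444, adjusted p 2.07e-13). LBD38 had 246, 223 and 285 CPM with N, against 1.87, 0.613 and 1.55 CPM with KCl (log2 fold change 7.59, SE 0.526, adjusted p 2.95e-15). LBD39 had 66.0, 54.2 and 71.2 CPM with N, against 0, 0.189 and 0.0596 CPM with KCl (log2 fold change 9.31, SE 0.656, adjusted p 4.83e-15). The KCl libraries of LBD39 at 60 min hold 5 reads in all, and the ratio of pooled reads was 691 (exact 95% interval 296 to 2130). At 60 min 13.7% of all genes were higher with N in the shoot, a share that at 45, 90 and 120 min was 12.3%, 18.8% and 19.1%.

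From 30 min on, mean shoot levels were 566 to 633 CPM for LBD37 and 204 to 251 CPM for LBD38, and the times next to each other in order of mean level overlapped. For LBD37 the N libraries of 45 min, at 580.5 to 583 CPM, nevertheless lay below those of 60 min, at 599 to 668 CPM. Mean LBD37 levels with N at 30, 45, 60, 90 and 120 min were 566 ± 44.0, 582 ± 1.47, 633 ± 34.6, 622 ± 91.7 and 583 ± 21.6 CPM (SD, n = 3 each). At 30, 60 and 120 min LBD38 averaged 231 ± 15.0, 251 ± 31.0 and 204 ± 22.0 CPM, and LBD39 40.9 ± 4.37, 63.8 ± 8.72 and 43.3 ± 5.46 CPM (SD, n = 3 each). At 120 min the 3 genes stood at 92.0%, 81.1% and 67.8% of their highest mean. LBD39 had 47.2, 45.6 and 37.1 CPM at 120 min with N, below every N library of 60 min. In the N libraries alone, the test between 30, 60 and 120 min called none of the 3 genes in the shoot, whereas limma voom called LBD39 higher at 60 than at 30 min (adjusted p 0.0245) and lower at 120 than at 60 min (adjusted p 0.0316). The test of whether the N effect, the difference of N from KCl, changed between these times called none either, although without KCl replicate 2 it called LBD37 lower at 120 than at 30 min (-1.57, adjusted p 0.0254). LBD38 came closest, at -2.09 on the log2 scale for 120 minus 60 min (SE 0.645, adjusted p 0.0539), and passed in 5 of its 13 alternatives. KCl libraries of LBD38 differed in that span, with 1.34 ± 0.652 CPM at 60 min and 4.57 ± 2.38 CPM at 120 min (SD, n = 3 each).

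**Figure D2:**
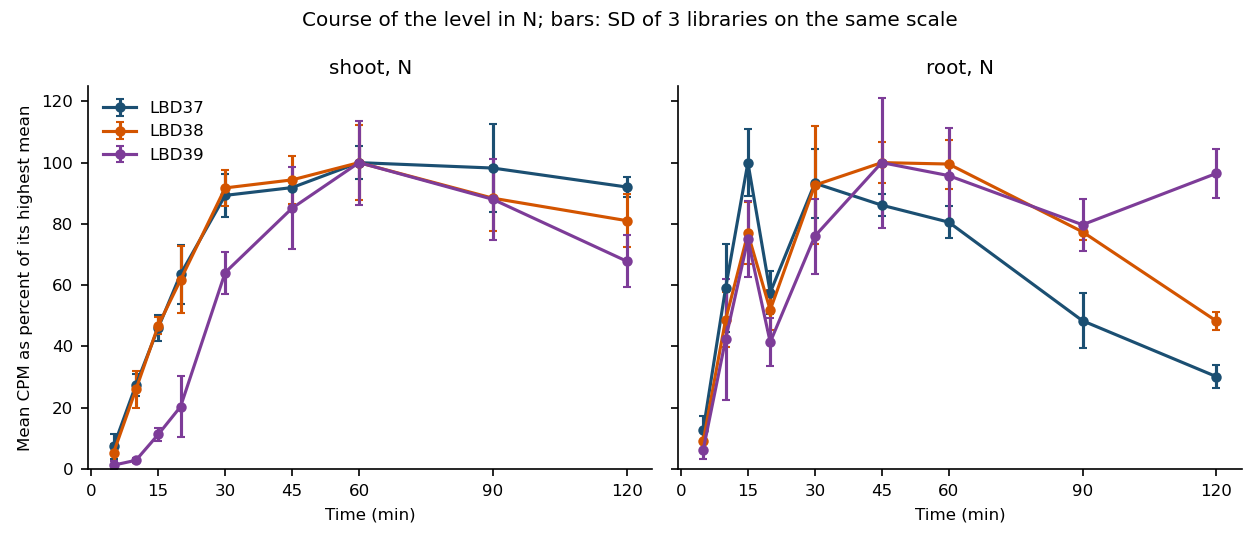
Mean CPM with N as percent of each gene's highest group mean (vertical axis) against time in minutes, for LBD37, LBD38 and LBD39 in shoot (left) and root (right); bars are the SD of 3 libraries on the same scale. LBD39 is at 11.3% in the shoot at 15 min, where LBD37 and LBD38 are at 46.1% and 46.8%, and at 120 min in the root the 3 genes stand at 30.2% (LBD37), 48.3% (LBD38) and 96.5% (LBD39).

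In the root all 3 genes were called at 5 min, the earliest harvest, and at each later time, 27 of 27 contrasts. LBD37 had 61.0, 115 and 128 CPM with N at 5 min, against 35.6, 47.9 and 37.0 CPM with KCl (log2 fold change 1.33, SE 0.235, adjusted p 0.00186). LBD38 had 35.6, 60.5 and 69.3 CPM with N, against 10.9, 22.9 and 15.0 CPM with KCl (log2 fold change 1.76, SE 0.307, adjusted p 0.00186). LBD39 had 2.14, 6.30 and 5.30 CPM with N, against 1.34, 1.91 and 0.768 CPM with KCl (log2 fold change 1.77, SE 0.439, adjusted p 0.0249). N replicate 1 was the lowest N library for all 3 genes and yet above the KCl libraries. Of all genes, 1.20% were called higher in the root at 5 min.

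The call of this root onset at 5 min depended on the fit. Without N replicate 3 at any time, the adjusted p at 5 min was 0.207 for LBD37, 0.179 for LBD38 and 0.413 for LBD39. The log2 fold changes at 5 min in that fit were 1.12, 1.55 and 1.64. With only the 6 libraries of 5 min in the fit, adjusted p was 0.247 for each gene and 0 genes were called higher over the whole table, against 266 in the fit of all root libraries. LBD39 also missed the threshold with limma voom (adjusted p 0.0594) and without N replicate 2 (0.0885), KCl replicate 1 (0.0897) or KCl replicate 2 (0.106). The log2 fold change stayed between 1.12 and 2.11 in these fits. Whether the onset of the N effect differs between the organs at 5 min was not tested.

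By 10 min the root response was past the threshold under each alternative tried. At 10 min LBD37 had 341, 565 and 488 CPM with N, against 105, 87.2 and 114 CPM with KCl. LBD38 had 229, 310.4 and 330.0 CPM with N, against 36.3, 40.1 and 40.5 CPM with KCl. LBD39 had 14.2, 36.5 and 40.3 CPM with N, against 1.03, 1.1 and 2.22 CPM with KCl. The log2 fold changes of N over KCl were 2.19, 2.90 and 4.37, with 8.02% of all genes higher at this time. The order of the 3 genes by log2 fold change, LBD39 above LBD38 above LBD37, was the same at all 9 times in the root. At 5, 60 and 90 min, however, LBD39 and LBD38 differed by less than the SE of either, and at 5 min by far less.

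The time of the highest root level depended on the libraries at 10 and 15 min. LBD37 was highest at 15 min, with 690.4, 859 and 809 CPM with N, against 116, 115 and 217 CPM with KCl. At 20 min its N libraries had 414, 427 and 517 CPM, below all of those at 15 min, and at 30 min 826, 648 and 726 CPM, above all of those at 20 min. All 3 genes had this dip of the N level at 20 min. LBD38 averaged 457 ± 60.2, 309 ± 39.4 and 551 ± 114 CPM with N at 15, 20 and 30 min. LBD39 averaged 53.8 ± 8.89, 29.7 ± 5.59 and 54.5 ± 8.76 CPM (SD, n = 3 each). The dip was smaller on library totals, without TMM: LBD37 averaged 612 ± 45.7, 498 ± 64.7 and 769 ± 66.8 CPM of library totals at 15, 20 and 30 min, LBD38 356 ± 34.6, 339 ± 45.4 and 577 ± 101, and LBD39 41.8 ± 5.30, 32.7 ± 6.25 and 57.2 ± 7.13 (SD, n = 3 each). On that scale the N libraries of 15 and 20 min overlapped for LBD37, LBD38 and LBD39 alike. With TMM, KCl levels of LBD37 fell too, from 149 ± 58.6 CPM at 15 min to 80.8 ± 21.0 CPM at 20 min. LBD38 averaged 49.2 ± 19.7 and 36.5 ± 19.4 CPM with KCl, and LBD39 1.79 ± 0.22 and 2.45 ± 1.45 CPM (SD, n = 3 each). The log2 fold change of N over KCl was no lower at 20 than at 15 min for LBD37. It went from 3.22 to 3.08 for LBD38 and from 4.90 to 3.57 for LBD39. These changes were not tested. With library totals, or without the root libraries at 10 and 15 min, LBD37 was highest at 30 min. Without N replicate 2, LBD37 was likewise highest at 30 min. LBD38 and LBD39 were highest at 45 min with TMM, with library totals and without the libraries at 10 and 15 min. Without N replicate 2 both were highest at 60 min, as LBD38 was without N replicate 1. LBD38 had 641, 567 and 576 CPM with N at 45 min, against 50.0, 38.4 and 32.8 CPM with KCl, and LBD39 had 57.6, 87.8 and 69.9 CPM with N, against 2.53, 3.00 and 2.70 CPM with KCl.

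Neighbouring times around these highest means overlapped. For LBD37 the N libraries of 15, 30, 45 and 60 min overlapped in turn, and for LBD38 those of 30, 45 and 60 min did. Adjusted p of N against KCl was smallest at 30 min for LBD37 in the root, where the log2 fold change was 3.56 (SE 0.254, adjusted p 7.61e-15), and it was 4.47 (SE 0.341, adjusted p 5.03e-14) for LBD38. The KCl libraries of 30 min were at 67.3, 61.9 and 56.8 CPM for LBD37 and at 25.3, 22.6 and 26.5 CPM for LBD38. The share of all genes higher with N in the root at 15, 20, 30, 45, 60 and 90 min was 8.26%, 2.68%, 3.31%, 7.78%, 14.5% and 8.27%.

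LBD37 and LBD38 declined in the root before 120 min, and LBD39 showed no decline. LBD37 had 642, 589 and 669 CPM with N at 60 min, 323, 460.1 and 358 CPM at 90 min and 213, 269 and 229.8 CPM at 120 min, with no overlap between these times. LBD38 had 616, 537 and 623 CPM with N at 60 min, 469, 469 and 443 CPM at 90 min and 277, 308 and 277 CPM at 120 min, again with no overlap. LBD39 had 62.1, 62.5 and 81.6 CPM with N at 60 min, 62.5, 58.5 and 50.6 CPM at 90 min and 75.6, 64.7 and 67.4 CPM at 120 min. For LBD39 the libraries of 120 min overlapped those of 60 min and lay above those of 90 min. At 120 min LBD37 stood at 30.2%, LBD38 at 48.3% and LBD39 at 96.5% of its highest mean.

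A test of the N libraries alone, chosen after seeing the data, gave the size of this decline. For 120 minus 60 min the log2 difference in the root was -1.42 (SE 0.234, adjusted p 3.80e-05) for LBD37, -1.04 (SE 0.297, adjusted p 0.0186) for LBD38 and 0.01 (SE 0.369, adjusted p 0.994) for LBD39. In this comparison 4.38% of all genes were called lower. For 120 minus 30 min it was -1.63 (SE 0.235, adjusted p 1.25e-06) for LBD37, -0.94 (SE 0.296, adjusted p 0.0189) for LBD38 and 0.34 (adjusted p 0.565) for LBD39, with 10.6% of all genes lower. LBD37 was called in both comparisons under all 10 alternatives. LBD38 at 120 minus 60 min was not called once N replicate 1 (adjusted p 0.212), 2 (0.0934) or 3 (0.175) was left out, and at 120 minus 30 min not once N replicate 1 (0.220) or 3 (0.176) was. The difference between LBD37 and LBD39 in this course is measured further on as a ratio within each library.

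KCl levels of LBD37 and LBD38 were also lower at 120 min than at 60 min. LBD37 averaged 89.4 ± 25 CPM with KCl at 60 min and 42.6 ± 4.70 CPM at 120 min in the root, and LBD38 54.6 ± 22.9 and 17.2 ± 3.05 CPM (SD, n = 3 each). Measured against KCl, the change of the N effect for 120 minus 60 min was -0.35 (SE 0.326, adjusted p 0.788) for LBD37 and 0.61 (SE 0.421, adjusted p 0.677) for LBD38, and neither was called. The N effect fell by 1.09 on the log2 scale for LBD37 between 30 and 120 min (SE 0.327, adjusted p 0.0254), where 5.13% of all genes were called lower. This call was lost without N replicate 1 (at -0.91, adjusted p 0.128), without N replicate 3 (-1.07, 0.123), and without KCl replicate 1 (-1.07, 0.0676) or 2 (-1.08, 0.0614). No other difference of the N effect between 30, 60 and 120 min was called among the 3 genes in the root, and without KCl replicate 3 the effect on LBD39 was called larger at 120 than at 60 min (2.19, adjusted p 0.0439). At 120 min N was still above KCl, by 2.48 (SE 0.243, adjusted p 7.87e-11) for LBD37, 4.06 (SE 0.335) for LBD38 and 5.46 (SE 0.469, adjusted p 2.19e-12) for LBD39 on the log2 scale, where 18.6% of all genes were higher.

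KCl libraries also differed from time 0. In the shoot the test of KCl against time 0 at any time gave adjusted p of 0.00549 for LBD37, 0.0441 for LBD38 and 0.161 for LBD39, and called 8.75% of all genes. LBD37 was at 10.4, 35.7 and 14.9 CPM with KCl at 5 min and at 22.2, 10.9 and 31.9 CPM at 120 min, against 8.0, 5.14 and 6.99 CPM at time 0. LBD37 lost this call without KCl replicate 3 (adjusted p 0.0885). LBD38 lost it in 6 of 12 alternatives, namely without KCl replicate 3 (0.103), without time 0 replicate 1 (0.0816), replicate 2 (0.133) or replicate 3 (0.0583), with limma voom (0.136) and with library totals (0.0597). In the root adjusted p was 2.69e-11, 7.33e-08 and 3.94e-05 for the 3 genes. There the same test called 89.3% of all genes, and the root libraries of time 0, at 80724946 to 143269564 gene counts, were among the 4 deepest of the series, so nothing is read from it.

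The N effect was larger in the shoot than in the root for all 3 genes at 60 min. The difference of the 2 effects, shoot minus root on the log2 scale, was 2.77 (SE 0.452, adjusted p 7.28e-06) for LBD37, 4.16 (SE 0.572, adjusted p 1.45e-07) for LBD38 and 5.61 (SE 0.918, adjusted p 7.47e-06) for LBD39. All 3 calls at 60 min held in 12 of 12 alternatives, and 3.74% of all genes had a larger effect in the shoot at that time. The absolute levels with N at 60 min were not higher in the shoot: LBD37 averaged 633 ± 34.6 CPM in the shoot and 633 ± 41.0 CPM in the root, each on its own organ's scale (SD, n = 3 each). On the same scales LBD38 averaged 251 ± 31.0 CPM in the shoot and 592 ± 47.5 CPM in the root. LBD39 averaged 63.8 ± 8.72 and 68.7 ± 11.1 CPM (SD, n = 3 each). The KCl levels of LBD37 were lower in the shoot, at 13.2 ± 5.06 CPM, than in the root, at 89.4 ± 25 CPM (SD, n = 3 each). Those of LBD38 at 60 min, 1.34 ± 0.652 CPM in the shoot and 54.6 ± 22.9 CPM in the root, were its lowest shoot and highest root KCl means. LBD39 had 5 reads in all with KCl in the shoot at 60 min and 5.29 ± 2.80 CPM in the root, its highest KCl mean there. The part of these KCl levels in the differences at 60 min was not tested. The lower base in the shoot is also seen at time 0, above.

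At the other 3 times compared, the organ difference was smaller or less stable. At 15 min it was 1.28 (adjusted p 0.0447) for LBD37, 1.60 (0.0395) for LBD38 and -0.20 (0.965) for LBD39, where 7.90% of all genes had a larger effect in the shoot. These calls held in 3 of 12 alternatives for LBD37 and in 6 of 12 for LBD38. The removal of any 1 N replicate ended both, with adjusted p of 0.0986 to 0.156 for LBD37 and 0.113 to 0.117 for LBD38, and without KCl replicate 3 LBD38 was at 0.97 (0.318). At 30 min it was 1.84 (0.0123), 1.96 (0.0454) and 1.95 (0.349), with 0.896% of all genes, and the calls held in 9 of 12 alternatives for LBD37 and 4 of 12 for LBD38. At 30 min LBD37 was not called without N replicate 2 (0.116), N replicate 3 (0.110) or KCl replicate 1 (0.147), and LBD38 not without any 1 N replicate (0.0949 to 0.246), KCl replicate 1 (0.226) or KCl replicate 3 (0.0833). At 120 min LBD37 stood at 2.28 (SE 0.447, adjusted p 8.59e-05) in 12 of 12 alternatives, LBD38 at 1.44 (0.0438) in 5 of 12 and LBD39 at 1.11 (0.358), with 9.43% of all genes. LBD38 at 120 min was not called without any 1 N replicate (0.108 to 0.191), KCl replicate 1 (0.0942) or KCl replicate 2 (0.116). Tested over all 9 times at once, the N effect differed between organs for each gene (adjusted p 1.63e-15, 3.78e-13 and 2.18e-08), as it did for 36.0% of all genes.

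**Figure D3:**
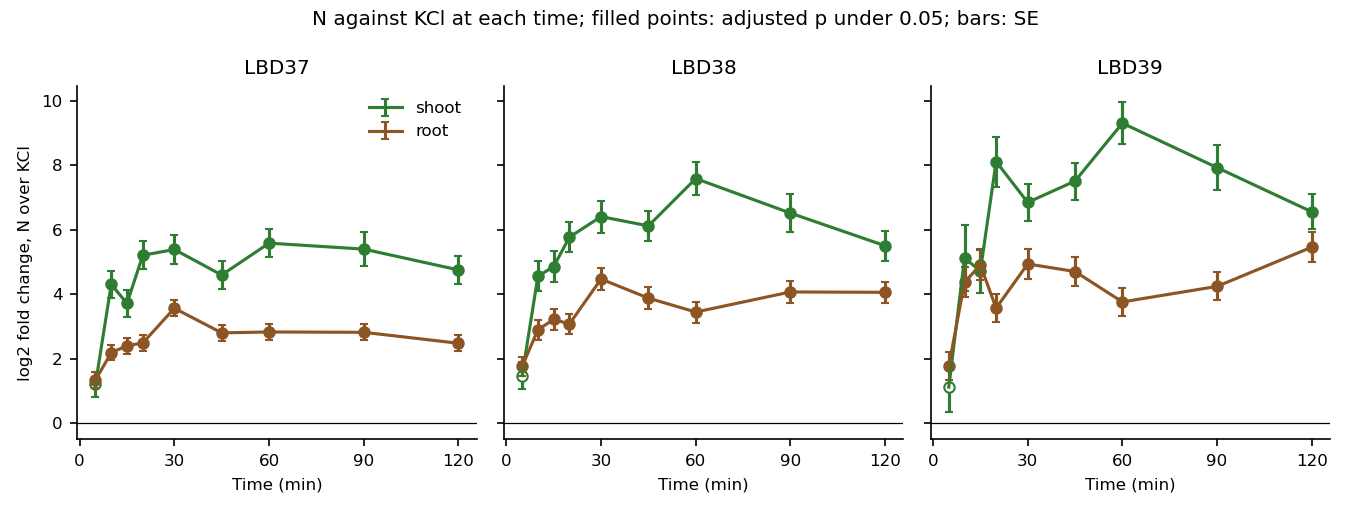
Log2 fold change of N over KCl (vertical axis) against time in minutes for LBD37, LBD38 and LBD39 in shoot (green) and root (brown), from the fit of each organ; bars are SE, and filled points have an adjusted p under 0.05. The shoot is above the root at 60 min for each gene, LBD39 reaching 9.31 in the shoot and 3.76 in the root.

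The balance of the 3 transcripts within a library does not depend on library scaling. In shoot N libraries, LBD38 counts were 33.1 to 41.0% of LBD37 counts in the group means of the 9 times. In root N libraries of 5, 30, 60 and 120 min, LBD38 was 55.0 ± 3.00%, 74.6 ± 7.0%, 93.4 ± 2.34% and 122 ± 7.72% of LBD37 (SD, n = 3 each). In the root the counts thus moved from more LBD37 to more LBD38, while in the shoot LBD37 counts stayed the higher. Counts are not corrected for length, and LBD37 has the longer exons. Per kilobase of exon, LBD37 was at 290 ± 39.7 and LBD38 at 317 ± 70.2 CPM with N in the root at 30 min (SD, n = 3 each). Between 120 and 30 min the ratio of counts had an exact two-sided permutation p of 0.1 in the root, the smallest that 3 against 3 libraries allow. In the shoot this p was 0.2.

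LBD39 counts rose against those of both others, though not throughout the course. In shoot N libraries of 10, 30, 60 and 120 min, LBD39 counts were 1.06 ± 0.332%, 7.30 ± 1.26%, 10.0 ± 0.869% and 7.45 ± 1.16% of LBD37 counts. In root N libraries of 5, 30, 60, 90 and 120 min they were 4.37 ± 1.01%, 7.44 ± 0.830%, 10.8 ± 1.27%, 15.4 ± 3.47% and 29.6 ± 5.72% (SD, n = 3 each). Shoot and root overlapped in this share at 30 and 60 min, and at 120 min the root libraries, at 24.1 to 35.5%, were all above the shoot libraries, at 6.19 to 8.46%. The 120 and 30 min libraries did not overlap in the root (exact two-sided permutation p 0.1, the smallest possible) and overlapped in the shoot (p 0.8). Against LBD38, LBD39 was at 24.2 ± 3.17% at 120 min and 10.1 ± 1.86% at 30 min in the root (p 0.1, again the smallest possible). From 10 to 90 min its group means against LBD38 in the root stayed at 9.59 to 12.4%. In the shoot it was at 2.90% of LBD38 at 10 min, 25.4% at 60 min and 21.6% at 120 min (p 0.3 for 120 against 30 min). These 6 permutation tests were chosen with the course in view, and none can pass 0.05 at 3 libraries a group. Adjusted over the 6 tests, p was 0.2 for all 3 ratios in the root and 0.3 to 0.8 in the shoot.

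**Figure D4:**
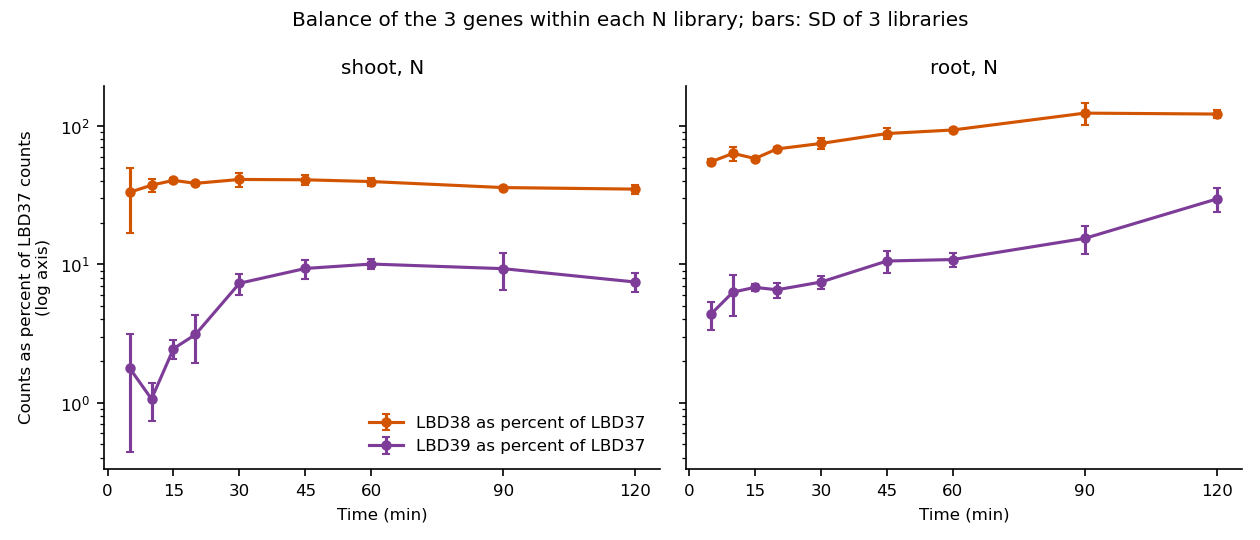
Counts of LBD38 (orange) and LBD39 (purple) as percent of LBD37 counts in the same N library (vertical axis, log scale) against time in minutes, in shoot (left) and root (right); points are means and bars SD of 3 libraries. LBD38 passes 100% of LBD37 in the root by 90 min and stays at 33.1 to 41.0% in the shoot, and LBD39 reaches 29.6% of LBD37 in the root at 120 min.

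Per length, LBD39 was the least abundant in both organs at 60 min, while the order of LBD37 and LBD38 in the root depended on which length was used. With N at 60 min, CPM per kilobase of exon, scaled over both organs, was 234 ± 14.0 for LBD37, 135 ± 17.3 for LBD38 and 43.6 ± 6.16 for LBD39 in the shoot (SD, n = 3 each). In the root the levels per kilobase at 60 min were 249 ± 16.3 for LBD37, 337 ± 27.3 for LBD38 and 49.8 ± 8.14 for LBD39. LBD38 libraries were all above LBD37 libraries there on this scale. Per kilobase of coding sequence, LBD37 was at 850.0 ± 55.8 and LBD38 at 804 ± 65.0 CPM in the root at 60 min (SD, n = 3 each), and the exons of LBD37, at 2572 bases, are the longer of the pair, against 1772 bases in LBD38. At 120 min in the root, LBD37 was at 95.4 ± 10.5, LBD38 at 168 ± 8.82 and LBD39 at 51.4 ± 4.69 CPM per kilobase of exon, and LBD38 also led per kilobase of coding sequence, with 399 ± 21.0 against 326 ± 35.8 for LBD37.

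Of the other class II genes, LBD41 rose and LBD40 did so in the root only by the any-time test. LBD41 (AT3G02550) had its smallest p at 120 min in both organs, with a log2 fold change of 2.22 (SE 0.401) in the shoot and 1.54 (SE 0.467) in the root. LBD40 (AT1G67100) had an any-time adjusted p of 0.0866 in the shoot, with 1.97 at 45 min, and of 0.0242 in the root, with 1.26 at 30 min. LBD42 (AT1G68510) was too low to be tested in either organ. Counting the 3 genes above, 4 of 5 class II genes tested were higher in the shoot and 5 of 5 in the root, and none lower. As 3 of these 5 are the genes above, the counts and the median of the class mostly restate their values. The median log2 fold change of the class, each gene taken at its time of smallest p, was that of LBD37 itself, 5.59 in the shoot and 3.56 in the root. Over all genes tested the median was -0.19 in the shoot and -0.25 in the root. Of these, 23.7% were called higher and 23.7% lower in the shoot, and 29.3% higher and 31.7% lower in the root.

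Of the anthocyanin pathway, which the 3 proteins are known to repress, the counts of lower genes stood near those of all genes. In the shoot 4 of 16 tested genes were lower, against 23.7% of all genes, and none higher, with a median of -0.53 on the log2 scale. PAP1 and PAP2, the MYB activators of the pathway, were among the lower genes: PAP1 was at -3.86 (SE 0.460, any-time adjusted p 1.02e-11) at 90 min and PAP2 at -3.16 (SE 0.211, any-time adjusted p 1.49e-18) at 120 min. TTG1, a WD40 partner of those MYB factors, was at -0.57 at 90 min (any-time adjusted p 1.24e-06). In the root 6 of 15 tested genes were lower, against 31.7% of all genes, and 2 higher, against 29.3%, with a median of -0.45. PAP2 was at -3.51 (SE 0.974) at 120 min in the root, the hydroxylase gene F3'H at -1.36 at 90 min, the glucosyltransferase gene UGT78D2 at -0.79 at 120 min and the chalcone synthase gene CHS at -0.68 at 120 min. PAP1 was too low to be tested in the root. The 2 higher genes in the root, named after their values were seen, were F3H, at 1.61 at 120 min, and UF3GT, at 2.25 at 15 min. At 15 min the shoot markers in root libraries summed to 116.5 to 289.7 CPM with N, against 69.8 to 93.2 CPM with KCl, and their part in these root values was not tested.

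Most genes of nitrate uptake and reduction, the other known targets of repression, rose over the same times. Of 11 tested, 7 were higher and 2 lower in the shoot (median 2.41) and 8 higher and 3 lower in the root (median 2.01). Of all genes, 23.7% were higher and 23.7% lower in the shoot, and 29.3% higher and 31.7% lower in the root. NIR1, the nitrite reductase gene, was at 5.45 at 60 min in the shoot and 3.85 at 90 min in the root on the log2 scale. NRT2.1, a high-affinity nitrate transporter gene, was at 5.91 at 60 min and 3.14 at 90 min, and its partner NRT3.1 at 2.96 at 60 min and 2.33 at 90 min. NIA1 and NIA2, which encode nitrate reductases, were at 3.99 and 2.41 at 60 min in the shoot and at 2.15 and 1.02 at 30 min in the root. NRT1.1, a nitrate transporter and sensor gene, was at 1.71 at 60 min in the shoot and 2.01 at 90 min in the root. These 6 genes were thus called higher in both organs while LBD37, LBD38 and LBD39 were high. The lower genes of the list, named after their values were seen, were also nitrate transporter genes. NRT2.4 was at -3.35 (SE 1.12) at 90 min in the shoot, where 2 KCl libraries remain, and at -2.63 (SE 0.280) at 120 min in the root. NRT2.5 was at -1.74 in the shoot and -2.14 in the root, both at 120 min. NRT1.8 was lower in the root only, and there by the any-time test (adjusted p 0.0137). At 30 min it stood at -0.95, with an adjusted p of 0.159 at that time.

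Among 18 other regulators of the nitrate response, 12 were higher and 2 lower in the shoot (median 1.40), and 11 higher and 6 lower in the root (median 1.60). The shares of all genes beside these counts are those given above. In the shoot BT2, a BTB-domain scaffold gene, was at 10.67 at 60 min, the cytokinin response factor gene CRF4 at 3.01 at 30 min and the NIGT1-type repressor gene HRS1 at 6.32 at 60 min on the log2 scale. In the root HRS1 was at 3.86 and its relative HHO3 at 3.03 at 30 min, and BT2 at 5.42 at 120 min. All 4 lists rest on the same N and KCl libraries as the 3 genes, so their counts stand beside those of the 3 genes and are no separate evidence.

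**Figure D5:**
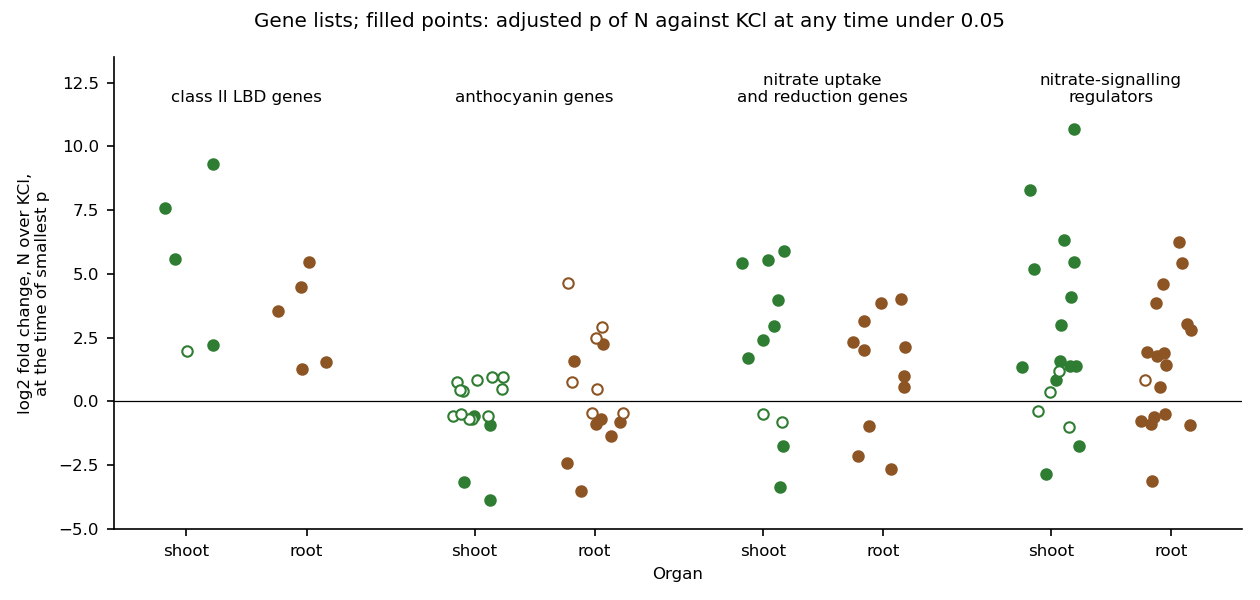
Log2 fold change of N over KCl at each gene's time of smallest p (vertical axis) for 4 gene lists in shoot (green) and root (brown); each point is 1 tested gene, filled where the any-time adjusted p is under 0.05, and spread sideways for legibility. Class II LBD genes, which include LBD37, LBD38 and LBD39, lie above 0 in both organs. PAP1 and PAP2 in the shoot and PAP2 in the root are among the lowest anthocyanin genes.

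Likeness of course was described over 18 differences between N and KCl, 9 times in each organ, of log2 mean CPM with 0.5 added, among 7205 genes called in both organs. LBD37 and LBD38 had a Pearson r of 0.965, which ranks LBD38 first among the genes like LBD37 and LBD37 second among those like LBD38. LBD38 and LBD39 had an r of 0.846 and LBD37 and LBD39 one of 0.728, which ranks LBD39 241st for LBD37. Apart from the 3 genes, the courses most like LBD37 were those of NIR1 (0.962), AT1G35560 (0.947) and AT1G78050 (0.943). Those most like LBD38 were UPM1, for a methyltransferase that serves siroheme synthesis (0.971), AT2G22200 (0.958) and AT3G19030 (0.954). Those most like LBD39 were AT5G10210 (0.935), RFNR2, for a root ferredoxin-NADP reductase (0.934), and AT5G26200 (0.919). The points share libraries, times and the KCl base, so these r values only describe the courses. With 2 CPM added in place of 0.5 the r of LBD37 and LBD39 was 0.556, that of LBD38 and LBD39 0.748 and that of LBD37 and LBD38 0.951.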

How the data were processed

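Per the labels' protocols, polyadenylated RNA of shoots and roots went into libraries whose second strand held dUTP. Each deposited file lists whole-number counts of reads per gene, and the submitters' processing notes name TAIR10, TopHat2 (version 2), HTSeq and limma, with no role, order or strand setting. Counts were used as deposited, and the 5 closing lines of each file that name no gene were left out. Groups come from the sample titles, because treatment tags are missing for many samples and name KNO3 only. Root replicate 1 at time 0 has a source name of shoot, against its title and organ tag, and was used as root. KCl replicate 2 of the shoot at 90 min was left out.

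In edgeR 4.0.16 (R 4.3.3) the groups of an organ each had 1 mean, fitted after filterByExpr (minimum count 10, minimum total 15; 20899 genes in the shoot, 22185 in the root, each with the 3 genes) and TMM scaling. Quasi-likelihood F-tests were adjusted by Benjamini-Hochberg over all genes within each contrast, with a threshold of 0.05. Organ differences came from 1 fit of 113 libraries (22757 genes). Levels are CPM on the TMM library size. A list gene is counted as higher or lower at its time of smallest p when the any-time test calls it. Analyses were tested on simulated data. DESeq2 1.42.0 and limma 3.58.1 served as alternatives, beside other scaling, no filter, a replicate block, fits of only the libraries compared, and leaving out each replicate. A replicate left out means that number of N, of KCl or of time 0, at all times in the fit. Tests of N libraries alone, library totals without TMM and leaving out the root libraries at 10 and 15 min were added after seeing the data. The named genes are the 3 members, the other class II genes, the 3 genes of each list and organ with the smallest any-time p, plus PAP1, PAP2, NRT2.1, NRT1.1, NIA1 and NIA2, and the 3 genes most like each member. Members and lists were chosen with earlier results of these data known. Sequences and gene models are from RefSeq TAIR10.1.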

Additional observations from a re-analysis of the deposited data

Results flagged for a closer look

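The N effect differed between the organs by a test of the difference itself, shoot minus root on the log2 scale. At 15 min it was 1.28 for LBD37 and 1.60 for LBD38. At 30 min it was 1.84 for LBD37 and 1.96 for LBD38. At 60 min it was 2.77 for LBD37, 4.16 for LBD38 and 5.61 for LBD39. At 120 min it was 2.28 for LBD37 and 1.44 for LBD38. The calls at 60 min and that of LBD37 at 120 min held in every alternative. Each of the others was lost in some, as given above. KCl levels were lower in the shoot than in the root throughout. The organs also differ in how reads aligned to more than 1 place were filed and in whether organelle genes hold counts. What part these have in the differences was not tested.

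Within the root, the N effect on LBD37 differed between times, with -1.09 on the log2 scale for 120 minus 30 min. This call was lost in several fits that left out a replicate, as given above.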

How the results depend on the processing

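Replicate numbers did not pair the samples as a whole: the deviations of same-numbered N and KCl libraries correlated at -0.40 to 0.47 over 26 shoot pairs (3 over 0.1; 6 best with their own number) and at -0.26 to 0.23 over 27 root pairs (5 over 0.1; 10 best with their own number). The highest of these, 0.47, was that of replicate 2 in the shoot at 5 min. A replicate block on the number is the same at all times of an organ and does not cover pairing within 1 time. With the number as a replicate block, 24 contrasts of the 3 genes were called higher in the shoot and 27 in the root, as without it, and 2 changes of the N effect between times were called, against 1 of 18 without the block. DESeq2 and library totals without TMM also gave 2. With library totals LBD37 in the root was highest at 30 min and first at 50% of its largest difference from KCl at 15 min, against 15 and 10 min. Without the root libraries at 10 and 15 min those times were 30 and 20 min, and LBD38 and LBD39 were first at 50% of that difference at 30 min, against 15 min. Leaving out each replicate in turn gave 24 to 26 of 27 contrasts higher in the shoot and 24 to 27 of 27 in the root (18 to 21 of 21 without 10 and 15 min), 0 to 2 changes of the N effect, 2 to 3 changes of the N level alone (4 of 18 with all libraries), 4 to 7 organ differences (9 of 12) and 3 to 5 any-time calls of KCl against time 0 (5 of 6). The highest time then ran, in the root, over 15 to 30 min for LBD37 and 45 to 60 min for LBD38 and LBD39, and in the shoot over 60 to 90 min for LBD37 and 45 to 60 min for LBD38. In the root 50% of the largest difference from KCl was first reached over 10 to 15 min for LBD37 and LBD38, and last held over 60 to 90 min for LBD37 and 90 to 120 min for LBD38. Direction changed only in values not called with all libraries. In the shoot these were the N effect of LBD37 at 60 minus 30 min (-0.54 without KCl replicate 2), of LBD39 at 5 min (-0.41 without N replicate 2 to 2.35 without KCl replicate 2) and at 120 minus 30 min (-2.88 without KCl replicate 2, 0.21 without KCl replicate 1, 0.88 without KCl replicate 3). The N level alone at 120 minus 30 min also turned, for LBD37 (-0.068 with library totals, -0.019 to 0.081 with a replicate left out) and for LBD39 (-0.039 with library totals, -0.059 to 0.199 with a replicate left out). In the root the N level of LBD39 at 120 minus 60 min turned (-0.018 with DESeq2 and with RLE factors, -0.12 to 0.164 with a replicate left out), and between organs the N effect of LBD39 at 15 min (-0.83 without KCl replicate 3 to 0.60 without KCl replicate 1). The cause of these shifts was not tested. Of 75 counts over all genes, 57 moved by over 1.5 times under at least 1 alternative. Genes higher in the root ran from 0 to 661 at 5 min (266 as reported), 86 to 2535 at 10 min (1779), 1013 to 2618 at 15 min (1833), 357 to 1244 at 20 min (595), 728 to 2263 at 45 min (1725) and 1571 to 3783 at 60 min (3215). Genes higher in the shoot ran from 0 to 7 at 5 min (3), 113 to 248 at 10 min (174), 248 to 488 at 15 min (320), 1706 to 2720 at 45 min (2573) and 2064 to 4051 at 90 min (3920). Lower root genes in the N level at 120 minus 60 min ran from 278 to 1330 (971) and at 120 minus 30 min from 877 to 2916 (2351), and in the N effect at 120 minus 30 min from 376 to 1555 (1137). Larger effects in the shoot than in the root ran from 867 to 2027 genes at 15 min (1797), 106 to 250 at 30 min (204), 432 to 1009 at 60 min (850) and 1260 to 2398 at 120 min (2146), the any-time organ difference from 5305 to 8275 (8190) and KCl against time 0 in the shoot from 742 to 2564 (1828). Higher anthocyanin genes in the root numbered 0 with limma voom and 1 without the libraries at 10 and 15 min, against 2. In the shoot, lower nitrate uptake and reduction genes numbered 1 without N replicate 2 or KCl replicate 2, against 2. NIA2 in the root at 30 min was not called without N replicate 1 (adjusted p 0.0605) or 3 (0.0697). Its call was also lost without KCl replicate 1 (0.0512) or 3 (0.0703). At 120 min in the root PAP2 lost its call without KCl replicate 2 (0.0710) and CHS without KCl replicate 1 (0.0660). LBD41 lost it there without N replicate 2 (0.0566) or KCl replicate 2 (0.0697). LBD40 in the root at 30 min was called with only the libraries compared (adjusted p 0.0273), and not with all. Any-time tests were not run with DESeq2. Without KCl replicate 1 or 3, 1 shoot KCl library is left at 90 min and is assumed to vary like the other groups. At the depth of the shoot KCl libraries, LBD39 rests on 0 to 13 reads per library, which limits its folds.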
